A study of Homo sapiens with 6 samples.

Results

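The transcripts described here are the long noncoding RNAs of CCD18Co cells, an established line of fibroblasts from normal human colon, whose symbol is LINC followed by digits alone. Members are the rows of the deposited count table of type lncRNA with such a symbol and a mean of at least 0.5 CPM (counts per 1000000 of the library's total) over the 6 libraries. The table holds 60663 genes and 2109 LINC-named lncRNA rows, of which 1216 had no count in any library and 151 (7.16%) were members. Members were thus chosen by their measured level over both groups, and levels are given as a description. The siNT group (3 libraries) had been transfected for 6 h with a non-targeting siRNA and the siLTBP2 group (3 libraries) for the same time with siRNA against *LTBP2*, which codes for a latent TGF-beta binding protein of the extracellular matrix. RNA was collected after 48 h in both groups. All 6 libraries come from this single line and received siRNA and transfection reagent, so untreated cells are not part of the comparison, and no source says whether the replicates were separate cultures, so the p-values measure the spread between these libraries. The comparison asks what the silencing of *LTBP2* changed in fibroblasts.

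Long noncoding RNAs are transcribed, usually spliced and capped, and have no long conserved reading frame. LINC symbols are placeholder names given mostly to such RNAs when they lie between coding genes and have no known function to name them by. A small number of them have been tied to the control of a neighbouring gene, to the binding of microRNAs or proteins, or to cancer, and most have no assigned role. They are known as a class for low and cell type-restricted expression.

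The libraries held between 44663424 and 53576899 counted reads, and 16920 genes passed the low-count filter of edgeR. Levels for comparison were scaled by TMM, which sets most genes equal between libraries. A gene is called when its Benjamini-Hochberg adjusted p was below 0.01 in edgeR's quasi-likelihood test with a fold change over 2. The targeted gene went with the labels. *LTBP2* had a mean of 23.1 ± 1.89 CPM in siNT against 7.03 ± 1.39 in siLTBP2 (SD, n = 3), with a log2 fold change of -1.72 (SE 0.15, adjusted p = 6.6e-05, where SE is the standard error). Of the 10 fibroblast markers, 2 had an unadjusted p below 0.05 and none was called by edgeR or DESeq2. *PDGFRB*, the gene of a platelet-derived growth factor receptor, went from 169 to 109 raw CPM (log2 fold change -0.60, adjusted p = 0.0025), short of the fold limit. The markers' summed raw level was between 9731 and 13520 CPM over the 6 libraries. Of the 6 epithelial markers, *EPCAM*, *CDH1*, *KRT20* and *VIL1* were at or near 0. *KRT18*, a keratin gene, was called, going from 36.7 to 79.6 raw CPM (log2 fold change 1.15, adjusted p = 0.00024). *KRT8*, another keratin gene, went from 10.6 to 12.8 raw CPM (log2 fold change 0.32, adjusted p = 0.085). The summed epithelial markers were 42.0 to 52.8 raw CPM in siNT and 84.7 to 96.7 in siLTBP2, and their part in the results was not tested. The marker lists of endothelial cells, leukocytes, smooth muscle and enteric glia each summed to at most 5.26 CPM in any library.

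Members were rare RNAs. Their mean level ran from 0.501 to 37.1 CPM with a median of 1.66 CPM, against a median of 35.7 CPM for coding genes held to the same floor. Only 16 members reached 10 CPM, 84 lay between 1 and 10 CPM, and 51 were below 1 CPM. Together they took 0.0591% to 0.0679% of the counts of a library, and the 5 most abundant held 26.1% of the member counts. No member was at 0 in any library, and the lowest single count was 8. Library siNT 2 had the highest share, and the shares of the siLTBP2 libraries lay between 0.0591% and 0.0596%. The gene models had a median of 3 exons and of 3782 bases of exon sequence, and 22 of the canonical transcripts had a single exon. The symbol *LINC01605* stands for 2 overlapping gene identifiers on the same strand of chromosome 8, whose reads cannot be told apart with certainty.

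The word intergenic described 93 of the 151 members in the annotation used here (GENCODE 44, GRCh38). Of the others, 20 began within 10 kb beyond the end of a coding gene on the same strand, 15 started within 1000 bases of a coding gene in head-to-head orientation, 12 overlapped a coding gene on the same strand and 11 overlapped one on the other strand. Since the strand setting of the read counting is not given in the sources used here, reads of a member and of a gene on the other strand may have been counted together. An overlap with any tested gene was present in 53 members, among them 3 of the 8 that were called.

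By raw mean, the most abundant members were *LINC02693*, *LINC00205*, *LINC00667*, *LINC00963* and *LINC01184*. *LINC02693* had 45.9, 37.0 and 44.1 TMM-normalized CPM in siNT 1 to 3 and 32.0, 30.4 and 33.2 CPM in siLTBP2 1 to 3. Every siLTBP2 library lay below every siNT library, and the log2 fold change was -0.41 (SE 0.10, adjusted p = 0.018). Its nearest tested coding gene, *MAP2K3*, a kinase that activates p38, had a log2 fold change of -0.62 (adjusted p = 0.014). *LINC00205* had 36.0, 33.9 and 33.1 CPM in siNT and 32.0, 31.7 and 29.1 CPM in siLTBP2, groups that did not overlap, at a log2 fold change of -0.15 (adjusted p = 0.28). The other three overlapped between groups, with log2 fold changes of -0.06 for *LINC00667*, -0.01 for *LINC00963* and 0.08 for *LINC01184*. Their neighbours *NTMT1*, an N-terminal methyltransferase beside *LINC00963*, and *POFUT2*, a protein O-fucosyltransferase beside *LINC00205*, had log2 fold changes of 0.48 (adjusted p = 0.017) and 0.30 (adjusted p = 0.037). *ZBTB14*, beside *LINC00667*, and *SLC12A2*, the sodium, potassium and chloride cotransporter gene beside *LINC01184*, had 0.09 (adjusted p = 0.60) and -0.05 (adjusted p = 0.81).

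Per kilobase of exon sequence, the order of levels was another, and the members named for it were picked after their values were seen. *LINC01605* came first with 8.89 CPM per kb, followed by *LINC01081* (6.29), *LINC01475* (6.23), *LINC01963* (5.60) and *LINC00294* (4.51). The value of *LINC01605* belongs to a single identifier of the overlapping pair named above, whose reads cannot be told apart with certainty. *LINC02693* fell to place 16 on this scale, with 2.13 CPM per kb, since its exons cover 17439 bases.

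At the floor itself, the lowest members were *LINC00896*, with a mean of 0.501 CPM, and *LINC02889*, with 0.509 CPM. Just outside lay *LINC00240* with 0.497 CPM and *LINC00882* with 0.490 CPM. Both groups counted towards the floor, so a member carried over it by a single group had to differ. This bears on 4 members with a siNT mean and 5 with a siLTBP2 mean under 0.5 CPM, and 142 were over it in both groups. All 151 passed edgeR's filter. Of the 1958 LINC-named rows below the floor, 77 were tested, 15 had an unadjusted p below 0.05 and 6 an adjusted p below 0.05. None was called by edgeR's quasi-likelihood test or by DESeq2, and the likelihood ratio test called 6.

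**Figure D1:**
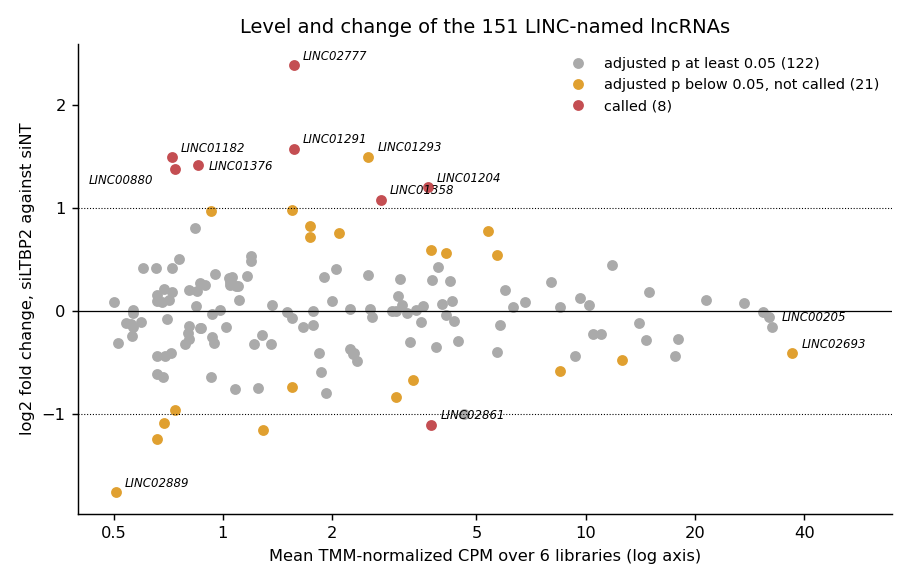
Each point is 1 of the 151 members, with its mean TMM-normalized CPM over the 6 libraries on a log axis and its log2 fold change in siLTBP2 against siNT. Dotted lines mark a fold of 2 in either direction. The called members (8) lie below 5 CPM, with 7 above the upper line and 1 below the lower line, and the 5 most abundant members lie between -0.41 and 0.08.

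As a group the members were centred near 0. Their median log2 fold change was 0.00, against -0.01 for all genes tested, with 77 positive and 74 negative values, from -1.76 to 2.38. By the rule above 8 members (5.30%) were called, 7 higher and 1 lower in siLTBP2, where 2.57% of all genes tested and 2.76% of those over the same floor were called. Among all genes tested 1.29% were higher and 1.27% lower, and among those over the floor 1.36% and 1.41%. In 3 of the 8, *LINC01182*, *LINC01376* and *LINC00880*, the siNT mean was under the floor, so their membership itself rested on the higher group. The split between directions depended on the test, the scaling and the filter. With edgeR's likelihood ratio test 8 were higher and 4 lower, with DESeq2 8 and 3, with RLE factors 7 and 3, with total counts 7 and 2, and with no low-count filter 8 and 6. The 8 members were called under each of these. Over all genes the same settings, in the same order, called 619, 468, 444, 427 and 680, against 434 in the reported fit. With 0.5 CPM required in both groups, 5 of 142 members were called. Leaving out a library gave 4 called members without siNT 1, siNT 2 or siLTBP2 2, 5 without siNT 3, 6 without siLTBP2 1 and 9 without siLTBP2 3. The calls over all genes, 434 with every library, changed as well, to 324, 308 and 337 without siNT 1, siNT 2 or siLTBP2 2, 405 without siNT 3, 395 without siLTBP2 1 and 374 without siLTBP2 3.

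At an adjusted p below 0.05, 29 members (19.2%) differed, 17 higher and 12 lower, against 19.3% of all genes tested (9.76% higher, 9.51% lower) and 21.7% of those over the floor (11% higher, 10.7% lower). The groups did not overlap in 54 members, 25 higher and 29 lower, which is 35.8% against 37% of all genes tested and 40.3% of those over the floor. Of the 122 members with an adjusted p of 0.05 or more, 113 had an estimate within 1.5-fold of no change. The median size of the log2 fold change was 0.28 in members and 0.21 in genes over the floor, and the median standard error was 0.24 against 0.12. The median coefficient of variation between libraries was 17.3% in siNT and 16.5% in siLTBP2 for members, against 10.1% and 9.43% for genes over the floor.

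**Figure D2:**
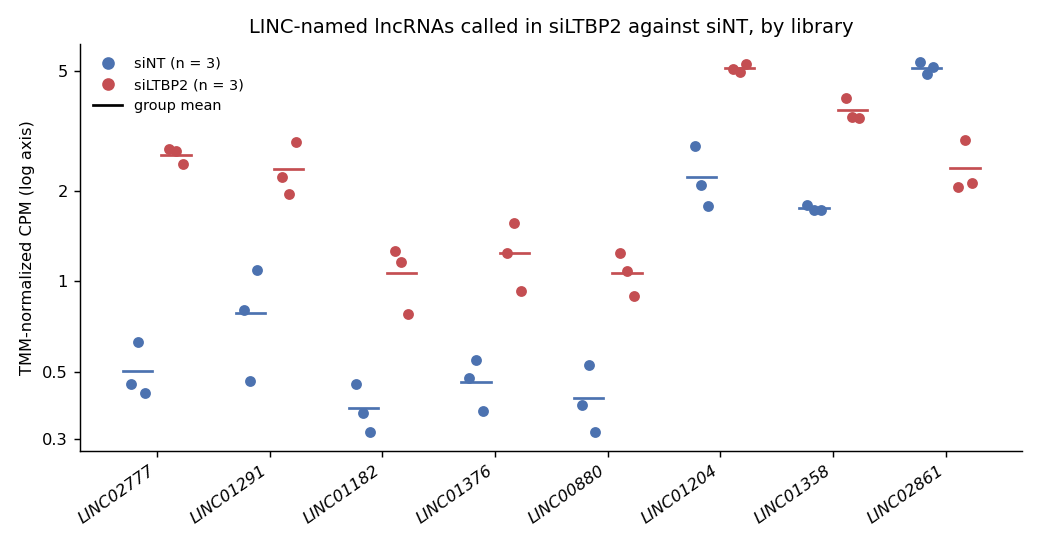
TMM-normalized CPM on a log axis for the called members, with 1 point per library and a bar at the mean of the 3 libraries of each group. In 7 members the siLTBP2 points lie above the siNT points and in *LINC02861* below them, with no overlap in any of the 8.

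The largest difference was in *LINC02777* (ENSG00000232453), on the minus strand of chromosome 1 from 58882868 to 58931897. It had 21, 31 and 23 counts in siNT 1 to 3 and 120, 128 and 129 counts in siLTBP2 1 to 3. Every siLTBP2 library was far above every siNT library, and within siNT the second library was the highest. Its mean level was 0.503 ± 0.11 CPM against 2.64 ± 0.16 CPM (SD, n = 3), which is a log2 fold change of 2.38 (SE 0.23, adjusted p = 0.000104). In bulk RNA, a change in the number of cells that make a transcript and a change in the RNA per cell cannot be told apart.

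*LINC01358* (ENSG00000237352) starts 1746 bases from *LINC02777* in head-to-head orientation, on the plus strand from 58933643 to 59240555. Its counts were 83, 85 and 93 in siNT and 178, 167 and 184 in siLTBP2, again with no overlap. The mean went from 1.75 ± 0.041 to 3.70 ± 0.33 CPM, a log2 fold change of 1.08 (SE 0.17, adjusted p = 0.0015). It overlaps *FGGY-DT* on the other strand, which had a log2 fold change of 0.35 (adjusted p = 0.38). *FGGY*, a carbohydrate kinase gene 56.1 kb away, had 0.55 (adjusted p = 0.088). The 300 bases around the annotated starts of this pair (250 before and 50 after, read 5′ to 3′ on the strand of each gene, GRCh38) are shown because both rose from neighbouring starts. Capitals mark matches to 4 motifs searched on both strands, the TATA box core TATAAA, the CAAT box core CCAAT, the word TGANTCA and the GC box core GGGCGG.
LINC02777, chr1:58931848-58932147, minus strand: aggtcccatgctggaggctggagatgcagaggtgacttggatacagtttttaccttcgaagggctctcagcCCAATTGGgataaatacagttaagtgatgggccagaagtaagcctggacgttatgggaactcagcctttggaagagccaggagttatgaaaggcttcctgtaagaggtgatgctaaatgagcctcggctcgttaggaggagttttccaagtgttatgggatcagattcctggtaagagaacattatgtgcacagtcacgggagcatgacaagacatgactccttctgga
LINC01358, chr1:58933393-58933692, plus strand: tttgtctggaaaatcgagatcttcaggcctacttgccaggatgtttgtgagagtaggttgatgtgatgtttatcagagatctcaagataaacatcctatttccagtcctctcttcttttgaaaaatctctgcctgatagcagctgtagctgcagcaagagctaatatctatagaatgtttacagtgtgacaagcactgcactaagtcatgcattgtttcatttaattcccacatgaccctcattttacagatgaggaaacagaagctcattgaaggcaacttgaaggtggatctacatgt
The window of *LINC02777* holds CCAAT on both strands, the copies overlapping by the middle bases, and that of *LINC01358* holds none of the 4 motifs. CCAAT was present in 35.5% of the windows of all genes tested and in 37.7% of those of members. Both windows are poor in CpG, with an observed to expected ratio of 0.30 and 0.083 where the median of all genes tested was 0.81.

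The same stretch of chromosome 1 holds *JUN*, which codes for a subunit of the transcription factor AP-1, and *LINC01135*, which starts 336 bases from *JUN* in head-to-head orientation and overlaps *LINC02777* by 18242 bases on the other strand. *LINC01135* was picked out after its values were seen. It had 33, 37 and 20 counts in siNT and 48, 50 and 55 in siLTBP2. The groups did not overlap, and the log2 fold change was 0.81 (SE 0.29, adjusted p = 0.073), which did not pass the test. *JUN* itself went from 165 ± 14.1 to 235 ± 10.7 CPM, a log2 fold change of 0.51 (adjusted p = 0.0033), under the fold threshold. *LINC02777* starts 148 kb and *LINC01358* 150 kb from the start of *JUN*.

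**Figure D3:**
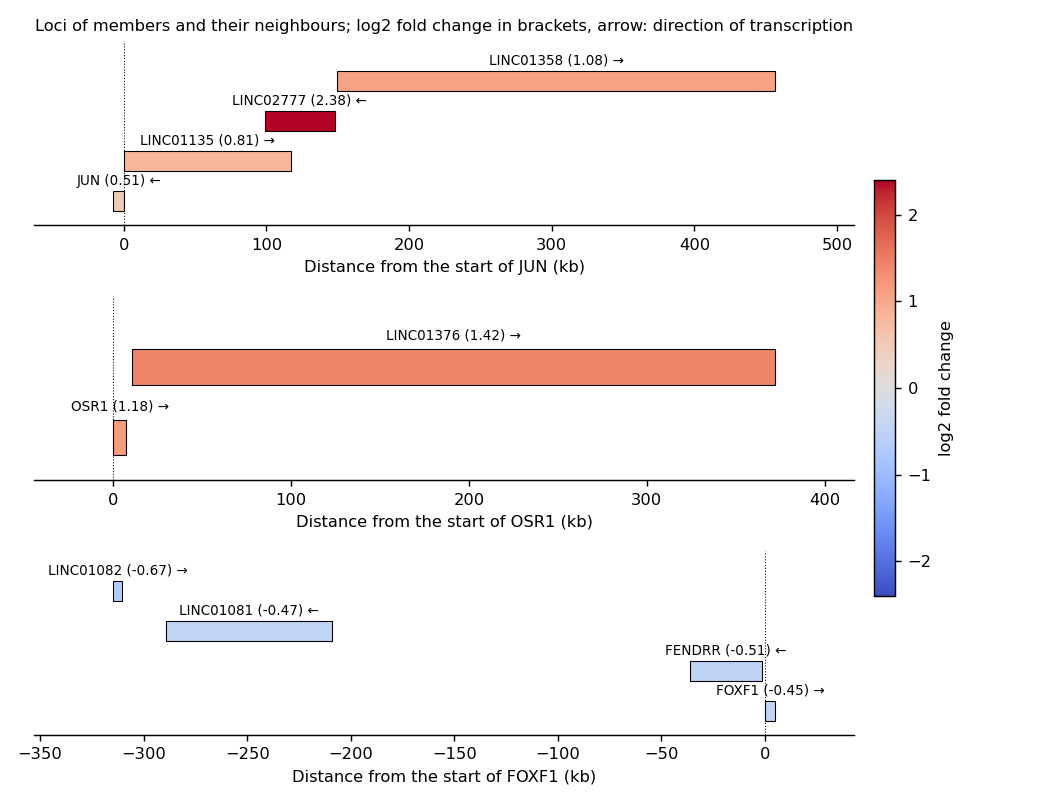
Panels show stretches of the genome to scale, with distance in kb from the start of *JUN*, *OSR1* or *FOXF1* on the x axis, genes as bars, an arrow for the direction of transcription, and the log2 fold change as colour and in brackets. The bars beside *JUN* and *OSR1* are red, with values from 0.51 to 2.38, and those beside *FOXF1* are blue, with values from -0.67 to -0.45. *LINC01135* did not pass the test (adjusted p = 0.073). The loci were picked after their values were seen, and the other called members are not drawn.

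*LINC01376* (ENSG00000236204) lies on the minus strand of chromosome 2 from 18986451 to 19348067 and begins 3.42 kb beyond the end of *OSR1*, a zinc finger transcription factor gene of mesenchymal progenitors, on the same strand. It had 22, 27 and 20 counts in siNT and 54, 74 and 49 in siLTBP2. All siLTBP2 libraries were above all siNT libraries, with means of 0.465 ± 0.089 and 1.24 ± 0.32 CPM, a log2 fold change of 1.42 (SE 0.28, adjusted p = 0.0062). *OSR1* had 11.8, 8.89 and 12.1 CPM in siNT 1 to 3, against 23.8, 24.3 and 26.1 CPM in siLTBP2 1 to 3. It was called as well, with a log2 fold change of 1.18 (SE 0.13, adjusted p = 0.000228), and *LINC01376* was the only 1 of the called members whose nearest coding gene was also called. The call of *LINC01376* was lost with any library but siLTBP2 3 left out, at adjusted p between 0.0145 and 0.031. Its start window is shown as the contrast to the pair near *JUN*, since it is rich in CpG (ratio 0.93).
LINC01376, chr2:19348018-19348317, minus strand: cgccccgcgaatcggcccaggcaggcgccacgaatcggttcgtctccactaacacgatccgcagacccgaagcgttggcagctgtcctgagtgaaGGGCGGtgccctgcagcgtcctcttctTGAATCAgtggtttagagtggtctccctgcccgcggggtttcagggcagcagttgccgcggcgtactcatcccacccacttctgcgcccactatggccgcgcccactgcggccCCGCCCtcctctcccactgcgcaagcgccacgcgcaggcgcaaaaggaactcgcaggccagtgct
This window holds GGGCGG at 2 places and TGANTCA at 1 place, where the base at N is A. GGGCGG was in 63.2% of the windows of all genes tested and 31.8% of those of members, and TGANTCA in 4.87% and 7.28%. Of the 7 higher members this was the only 1 with either motif.

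A tandem pair on chromosome 2 was higher in siLTBP2, *LINC01291* by the call rule and *LINC01293* short of it. *LINC01291* (ENSG00000204792, plus strand, 74918148 to 74938418) had 37, 23 and 59 counts in siNT and 97, 92 and 153 in siLTBP2. It overlaps a tested gene on the other strand (ENSG00000236209), so reads of both may have been counted together. The libraries of each group were uneven and the groups did not overlap. The log2 fold change of *LINC01291* was 1.58 (SE 0.30, adjusted p = 0.0046), from 0.787 ± 0.31 to 2.36 ± 0.49 CPM. Its call was lost without siNT 1 (adjusted p = 0.017), siNT 2 (adjusted p = 0.016) or siLTBP2 2 (adjusted p = 0.0105). *LINC01293* (ENSG00000230836) begins 1840 bases beyond its end on the same strand and had 72, 32 and 94 counts in siNT and 129, 143 and 272 in siLTBP2. It was lowest in siNT 2 and highest in siLTBP2 3, as was *LINC01291*, and its log2 fold change of 1.497 (SE 0.34, adjusted p = 0.012) fell short of the threshold on p. *POLE4*, a DNA polymerase epsilon subunit gene 20.2 kb from *LINC01291*, had 0.24 (adjusted p = 0.18). The start windows of the tandem pair are shown because both RNAs were higher from starts 22.1 kb apart.
LINC01291, chr2:74917898-74918197, plus strand: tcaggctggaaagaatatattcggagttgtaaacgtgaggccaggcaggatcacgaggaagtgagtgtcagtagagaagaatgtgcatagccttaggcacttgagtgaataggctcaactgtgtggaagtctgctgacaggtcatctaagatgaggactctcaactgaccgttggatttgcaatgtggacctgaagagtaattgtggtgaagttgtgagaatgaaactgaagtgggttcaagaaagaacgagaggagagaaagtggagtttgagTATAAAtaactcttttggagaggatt
LINC01293, chr2:74940008-74940307, plus strand: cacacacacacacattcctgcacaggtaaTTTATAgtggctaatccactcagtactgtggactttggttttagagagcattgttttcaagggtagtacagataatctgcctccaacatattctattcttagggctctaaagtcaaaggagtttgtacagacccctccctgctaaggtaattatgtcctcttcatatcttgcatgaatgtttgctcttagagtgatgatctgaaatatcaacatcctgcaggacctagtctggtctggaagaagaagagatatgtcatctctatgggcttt
Each holds TATAAA once, after the annotated start in *LINC01291* and, in *LINC01293*, on the other strand far upstream. TATAAA was found in 8.14% of the windows of all genes tested and in 12.6% of those of members.

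*LINC01204* (ENSG00000229563, plus strand of chromosome X, 45505388 to 45632121) had 130, 103 and 96 counts in siNT and 221, 235 and 279 in siLTBP2. In CPM the siLTBP2 libraries lay close together, at 5.11 ± 0.17, and the siNT libraries were more spread, at 2.23 ± 0.53. The log2 fold change was 1.20 (SE 0.19, adjusted p = 0.0016), and without siNT 2 it was 1.16 and no longer called (adjusted p = 0.012). Its nearest tested coding gene was 393 kb away, *KDM6A*, a histone H3 lysine demethylase gene, at 0.07 (adjusted p = 0.63).

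The remaining higher members were among the least abundant. *LINC01182* (ENSG00000250634, plus strand of chromosome 4, 13654374 to 14003756) had 21, 18 and 17 counts in siNT and 55, 55 and 41 in siLTBP2. *LINC00880* (ENSG00000243629, minus strand of chromosome 3, 157081667 to 157128595) had 18, 26 and 17 counts in siNT and 54, 51 and 47 in siLTBP2. The groups did not overlap in either. The log2 fold change was 1.49 for *LINC01182* (SE 0.29, adjusted p = 0.0056) and 1.38 for *LINC00880* (SE 0.28, adjusted p = 0.0069). Their nearest tested coding genes were *BOD1L1*, which protects stalled replication forks, 26.6 kb away at 0.45 (adjusted p = 0.011), and *CCNL1*, a cyclin gene linked to splicing, 17.9 kb away at 0.24 (adjusted p = 0.13). Both lost the call with any library but siLTBP2 3 left out, at adjusted p between 0.013 and 0.025 for *LINC01182* and between 0.011 and 0.027 for *LINC00880*.

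The member that fell was *LINC02861* (ENSG00000262185), on the minus strand of chromosome 16 from 3930806 to 3950586. It had 247, 241 and 278 counts in siNT and 90, 140 and 112 in siLTBP2. Its level was steady in siNT, at 5.13 ± 0.23 CPM, and lower in every siLTBP2 library, at 2.38 ± 0.50 CPM, with a log2 fold change of -1.10 (SE 0.18, adjusted p = 0.0020). *LINC02861*, like *LINC02777* and *LINC01358*, was called whichever library was left out. It begins 2.80 kb beyond the end of *ADCY9*, an adenylyl cyclase gene, on the same strand, and *ADCY9* had -0.30 (adjusted p = 0.046). Its transcript holds the 7-base word GCACCCA, shown in capitals in the 30 bases around it.
LINC02861, chr16:3950404-3950433, minus strand: tgggcgtgaacGCACCCAgcttgattgtca
This word came out of earlier results on the same libraries, so it supports nothing here. It was present in 32 of the 151 canonical transcripts (21.2%), and in 13.5% of other lncRNAs over the floor. The median log2 fold change of members was 0.02 with it and 0.00 without it, while other lncRNAs with it had -0.17 and without it -0.03. Transcripts with the word were longer, at a median of 2138.5 against 1709 bases in members and 2605 against 1483 in other lncRNAs. The part of length in these medians was not tested. *LINC02861* was the only called member with the word, and the 7 higher members lacked it.

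Beyond the calls, the members furthest from 0 were rare. *LINC02889* had 33, 24 and 62 counts in siNT and 13, 8 and 12 in siLTBP2, a log2 fold change of -1.76 (SE 0.39, adjusted p = 0.0105). *LINC00519* had 41, 57 and 40 counts in siNT and 13, 25 and 18 in siLTBP2, with -1.24 (SE 0.31, adjusted p = 0.018). *LINC01091* had 71, 104 and 91 counts in siNT and 45, 37 and 31 in siLTBP2, with -1.16 (SE 0.26, adjusted p = 0.0102). In all of these the siLTBP2 libraries were below the siNT libraries, and it was the threshold on p that they missed, by a narrow margin in *LINC01091* and *LINC02889*. The likelihood ratio test of edgeR called all of them. In *LINC02889* and *LINC00519* the siLTBP2 mean, 0.228 and 0.385 raw CPM, was under the floor. Their membership itself rested on the higher group, siNT, so they had to differ. On the higher side *LINC00452* had 0.98 (adjusted p = 0.015) and *LINC00211* 0.97 (adjusted p = 0.017), next to *LINC01293* above. *LINC01915*, picked out after its values were seen, had 287, 433 and 186 counts in siNT and 173, 203 and 52 in siLTBP2. Its groups overlapped, at means of 6.14 ± 2.66 and 3.08 ± 1.82 CPM (adjusted p = 0.16). *LINC01915* was called, however, with no low-count filter and in the fit with the replicate number as a block.

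Several of these lie beside coding genes with a known role, and the pairs in this paragraph were picked after their values were seen. *LINC02889* is 59.3 kb from *AHR*, the aryl hydrocarbon receptor gene, at -0.51 (adjusted p = 0.015), and *LINC01091* is 135 kb from *SPRY1*, an inhibitor of receptor tyrosine kinase signalling, at -0.62 (adjusted p = 0.015). *LINC00452* has as its neighbour *GAS6*, the ligand of the TAM receptors, at 0.68 (adjusted p = 0.000727). Its nearest coding gene on the same strand, *TMEM255B*, had -0.29. The nearest tested coding gene went the other way for *LINC00519* and *LINC00211*. These neighbours were *TMX1* at 0.26 (adjusted p = 0.18) and *RMDN2* at -0.57 (adjusted p = 0.067). *LINC01081* and *LINC01082* lie 209 and 311 kb before *FOXF1*, a forkhead transcription factor gene of gut and lung mesenchyme, in the stretch known for its distant enhancers. *LINC01081* had 652, 772 and 761 counts in siNT and 510, 556 and 430 in siLTBP2, with -0.47 (adjusted p = 0.048), and *LINC01082* had 150, 240 and 226 against 135, 115 and 116, with -0.67 (adjusted p = 0.041). No siLTBP2 library of either reached the lowest siNT library. *FOXF1* went from 497 ± 39.5 to 363 ± 56.3 CPM, with -0.45 (adjusted p = 0.025), and *FENDRR*, the lncRNA transcribed away from it, had -0.51 (adjusted p = 0.027).

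Some LINC-named RNAs are known from tumours or from other roles. Of 12 listed for that reason, 5 were members and 7 were not. *LINC00707*, below the floor, was called by edgeR's likelihood ratio test but not by the quasi-likelihood test or DESeq2. *LINC00973* had 78, 70 and 84 counts in siNT and 113, 88 and 180 in siLTBP2, a log2 fold change of 0.76 (SE 0.24, adjusted p = 0.046). It was highest in siLTBP2 3, and siLTBP2 2 lay just above the siNT libraries. The other members of that list did not pass the test at 0.05: *LINC00511* had 0.28 (adjusted p = 0.16), *LINC00632*, whose locus also yields the circular RNA CDR1as, had -0.29 (adjusted p = 0.22), *LINC01116* had 0.25 (adjusted p = 0.55) and *LINC00472* had 0.06 (adjusted p = 0.87). CDR1as itself was not measured apart from its host here.

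By position, the 93 intergenic members held 6 calls, all higher, and the 20 that begin after a coding gene held 2, 1 in each direction. Of the members called, *LINC01182*, *LINC01376* and *LINC00880* had a siNT mean under the floor. Among all genes tested 2.57% were called, and 2.76% of those over the floor, so a small class may hold no call without differing. The 15 head-to-head members, the 12 with an overlap on the same strand and the 11 with an overlap on the other strand held none by edgeR's quasi-likelihood test, with 2 members in each at an unadjusted p below 0.05. The likelihood ratio test and DESeq2 called 1 of these, *LINC02889*, which overlaps a gene on the other strand and had a siLTBP2 mean under the floor. At an adjusted p below 0.05 there were 23 of the 93 intergenic members, 5 of the 20 that begin after a coding gene, 0 of 15, 0 of 12 and 1 of 11, where 19.3% of all genes tested passed, and the differences between the classes were not tested. The median log2 fold change was between -0.05 and 0.10 in every class.

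The start windows differed between these classes. The CpG ratio had a median of 0.42 in members, 0.38 in intergenic and 0.97 in head-to-head members, against 0.81 over 16853 genes tested and 0.62 in other lncRNAs over the floor. A ratio of 0.6 or more was found in 57 members (37.7%) and in 74.2% of all genes tested. Among the called members it ran from 0.083 in *LINC01358* to 0.93 in *LINC01376*, with *LINC01182* (0.82) and *LINC02861* (0.78) also over 0.6.

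**Figure D4:**
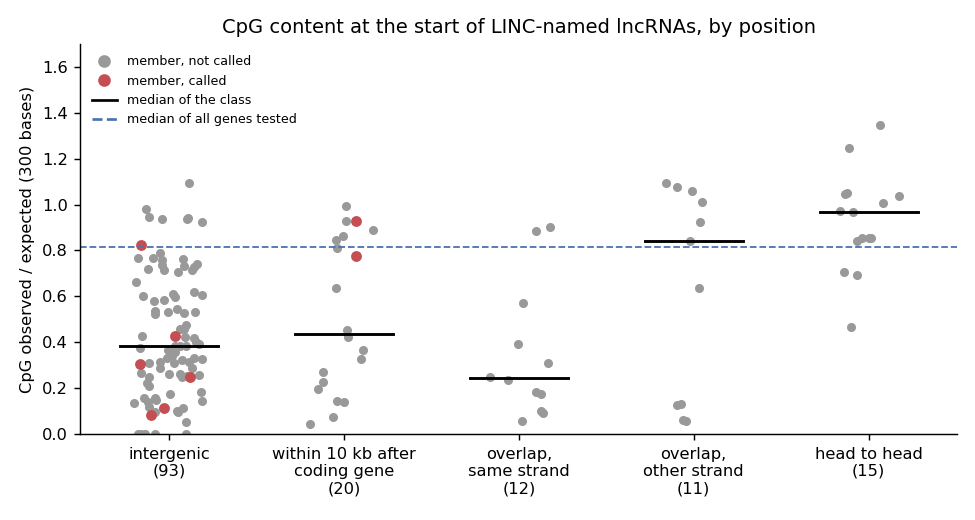
Observed to expected CpG ratio in the 300 bases around the start of each member (points, called members in red), by position relative to coding genes, with the number of members in brackets. Black bars are class medians and the dashed line is the median of all genes tested (0.81), which head-to-head members exceed (median 0.97) and intergenic members do not reach (median 0.38).

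Each member was set beside its nearest tested coding gene, 144 different genes in all, at a median distance of 16.3 kb. The pair had the same sign in 86 of 151 cases (57.0%), with a Pearson correlation of 0.34 and a Spearman correlation of 0.31 across the pairs, which share libraries. Other lncRNAs over the floor had the same sign in 60.0%, with correlations of 0.34 and 0.29. The 29 members with an adjusted p below 0.05 had the sign of their neighbour in 23 cases (79.3%), and the other 122 in 63 cases (51.6%). For other lncRNAs these shares were 72.5% and 58.3%. Where a coding gene of the same strand lay within 100 kb, 46 of 89 members (51.7%) had its sign.

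Seen from the coding side, 5 members (3.31%) had a called gene as their nearest neighbour, where 2.29% of other lncRNAs over the floor had one and 2.57% of all genes tested were called. Their own values differed. These members were named after their values were seen. *LINC01376* rose with *OSR1* as given above. *DCBLD2*, a receptor-like membrane protein gene 79.4 kb from *LINC00973*, had a log2 fold change of 1.12 (adjusted p = 0.000448). *NT5E*, the gene of the ectoenzyme CD73, had 1.43 beside 0.35 in *LINC02535* (adjusted p = 0.47 for the RNA). *SLC39A10*, a zinc transporter gene, had 1.24 beside 0.01 in *LINC01825*, and *BMP2K*, a kinase gene, had 1.03 beside -0.10 in *LINC01094*. A called neighbour was found both with members that changed and with members whose estimate was close to 0.

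**Figure D5:**
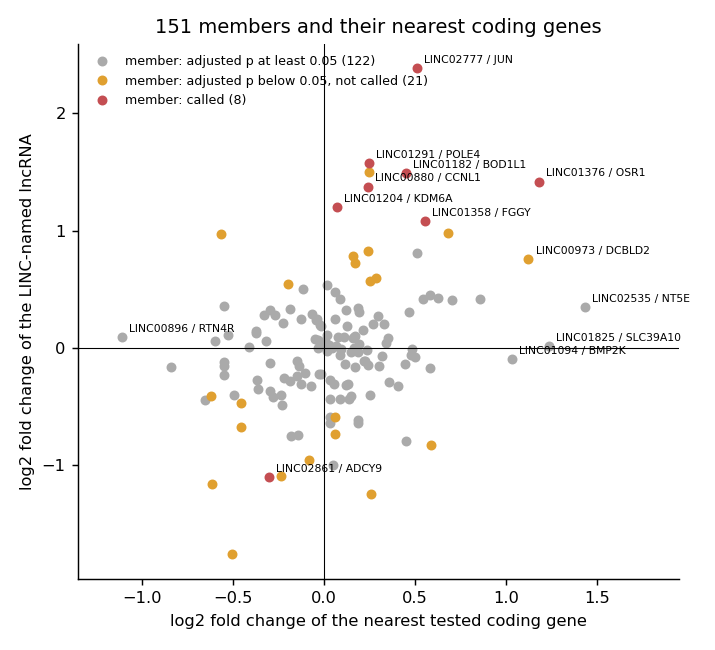
Log2 fold change of each of the 151 members (y axis) and of its nearest tested coding gene (x axis), coloured by the result for the member. Of the called members, *LINC01376* alone pairs with a gene beyond a log2 fold change of 1, *OSR1* at 1.18, while *LINC01825* lies near 0 on the y axis beside *SLC39A10* at 1.24.

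Set beside other lncRNAs over the same floor, the LINC-named members had 5.30% called, antisense lncRNAs (-AS) 4.92% (16 of 325), divergent transcripts (-DT) 2.17% (2 of 92), small RNA host genes 1.96% (1 of 51) and rows with a clone name or no symbol 2.39% (20 of 836). The 5.30% includes *LINC01182*, *LINC01376* and *LINC00880*, whose siNT mean was under the floor. With 0.5 CPM required in both groups 5 of 142 members were called, and the other classes were not recounted in that way. The 55 lncRNAs that once had a LINC number and now have another symbol held 5 calls (9.09%), 4 higher and 1 lower. All lncRNAs together had 3.42% called and coding genes 2.81%, and the differences between these classes were not tested. Copies elsewhere in the transcriptome, matching at 98% over at least 150 bases, were found for 15 members, over 50% of the transcript in 8, and for none of the called members.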

How the data were processed

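CCD18Co fibroblasts transfected with siNT or siLTBP2 were profiled in 6 libraries of total RNA, depleted of ribosomal RNA and made with a stranded kit. Per the labels, reads were aligned to GRCh38 with STAR 2.7.1a and counted with HTSeq 0.11.2, and the authors deposited raw counts per gene without normalization. Neither the annotation release nor the strand setting of HTSeq is given in the sources used. No column of another series was in the table.

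Counts were filtered with filterByExpr, normalized by TMM and tested with edgeR 4.0.16 in R 4.3.3 (glmQLFit and glmQLFTest, two-sided, no block), with Benjamini-Hochberg adjustment over the 16920 genes tested. Calls required a fold change over 2 at an adjusted p under 0.01. The SE is the size of the log2 fold change over the square root of the test statistic. Alternatives were the likelihood ratio test that the study's methods name, DESeq2 1.42.0, scaling by RLE, by upper quartile or by total counts, other filters, other floors, the replicate block and leaving out each library.

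Positions, exons, canonical transcripts and starts came from GENCODE 44 and sequence from GRCh38. Of the members, 134 had the same start in GENCODE 44 as in the table, and 11 had another symbol there. Members, gene lists and tests were chosen with earlier results of these data known. Named in the text are the called members, the 5 most abundant, the 3 highest and 3 lowest of those not called, rows around the floor, 12 listed RNAs, neighbours of the called and the most abundant members, and *LTBP2*, beside those said to be picked after their values were seen. The steps were tested on simulated data. Libraries of a group differed by more than sampling noise (chi-square per degree of freedom 24.6 to 48.1), so none was counted as a duplicate.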

Additional observations from a re-analysis of the deposited data

How the results depend on the processing

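The count of called members, 8 in the reported fit, was 14 without a filter on low counts, 14 in the fit with a replicate block, and 5 with 1 CPM required in 3 libraries, a floor of 1 CPM or 0.5 CPM in both groups. Under these last settings the higher calls were 4 each. Calls over all genes moved too, from 434 to 680 without a filter, 636 with the block and 365 with 1 CPM in 3 libraries. They were 619 with the likelihood ratio test, 468 with DESeq2, 444 with RLE factors and 427 with total counts. With the limit on p at 0.05 and none on fold the counts were 29, 17 higher and 12 lower. Lower calls, 1 as reported, were 4 with the likelihood ratio test, 3 with RLE factors, 2 with total counts, 6 with no filter, 6 with the block and 3 with DESeq2. The cause was not tested, except that fewer members entered the fit with 1 CPM in 3 libraries (104). The higher floors left 100 and 142 members, counted in the reported fit. The calls lost under that filter and these floors were *LINC00880*, *LINC01182* and *LINC01376*, which were no longer among the members counted. Leaving out each library gave 4 to 9 called members, 2 to 8 higher and 1 to 2 lower, and a median log2 fold change of the members from -0.036 to 0.075.

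The replicate numbers were not taken to pair the libraries, since the correlation of deviations from the group means was 0.30, 0.08 and 0.43 for numbers 1 to 3 and so not over 0.1 in each. Every siLTBP2 library correlated best with the siNT library of its number, as did siNT 1 and siNT 3 in turn, while siNT 2 had 0.10 with siLTBP2 1. The fit with the block called 14 members, the reported 8 among them.

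For single genes, 658 of 706 alternatives kept direction and side of the threshold, 20 lost and 21 gained a call, and 7 turned sign, all of them close to 0 in the reported fit. All of these came from leaving out a library, where *LINC00963* ran from -0.077 to 0.071, *LINC00896* from -0.12 to 0.33, *LINC00472* from -0.11 to 0.22 and *SLC12A2* from -0.15 to 0.048. The 3 members that lost their call with any library but siLTBP2 3 left out had between 17 and 74 counts, and *LINC02777*, with 21 to 31 counts in siNT, kept its call.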
